A study of Mus musculus with 2 samples.

Results

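The data cover 10 mouse genes of the cytosolic heat shock system, namely Hspa1a, Hspa1b, Hspa8, Hsp90aa1, Hsp90ab1, Hspb1, Hsph1, Dnaja1, Dnajb1 and the transcription factor gene Hsf1. They were taken by gene name from the arrays, on which 21346 genes had a probe well above background on at least 1 array. All 10 genes were among these, and 19 probes carried their names. The cells were epithelial cells of the submandibular gland of female C57BL/6 mice (C57BL/6N in the methods of the study), collected on magnetic beads coated with an antibody against EpCAM after the gland had been minced and digested with enzymes. The young sample came from a mouse of 9 weeks and the aged sample from a mouse of 24 months, with no further treatment or genotype in the labels. RNA of each was labelled with Cy3 and hybridized to 1 Agilent array, both on the same slide. With 1 array per age, differences have no replicate check, no test between the ages was made and no p-value is given. The methods of the study name a commercial breeder for the young mice and the institute's own facility for the aged mice, so age and source cannot be told apart.

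Heat shock proteins keep other proteins folded. Hsp70 binds exposed stretches of unfolded protein, J-domain proteins bring these clients to it and start its ATP cycle, nucleotide exchange factors of the Hsp110 group reset it, and Hsp90 finishes the folding of kinases, steroid receptors and other signalling proteins. Cells keep constitutive forms for everyday folding and add inducible forms under heat, oxidants or toxic protein, when the factor Hsf1 binds heat shock elements, which are inverted repeats of GAA and TTC in promoters. Salivary epithelium makes secreted protein in bulk, most of which folds in the endoplasmic reticulum with other chaperones, whereas the genes here act in the cytosol and nucleus. Hspa1a, Hspa1b, Hsp90aa1, Hspb1, Hsph1 and Dnajb1 were grouped as the inducible genes, Hspa8, Hsp90ab1 and Dnaja1 as the constitutive genes, and Hsf1 was kept apart as the regulator.

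The promoters are shown because Hsf1 acts on heat shock genes through such elements. The table of mouse promoters from RefSeq (GRCm38.p6) held Hspa1a, Hspa1b, Hspb1, Hsph1, Dnaja1 and Dnajb1, and none was read for Hspa8, Hsp90aa1, Hsp90ab1 and Hsf1. Hspa1a and Hspa1b lie on the minus strand of chromosome 17, with start sites 12918 bases apart. The 250 bases before each start site follow, at chr17:34972157-34972406 for Hspa1a and chr17:34959239-34959488 for Hspa1b, with matches to a pair of inverted repeats, GAANNTTC or TTCNNGAA, in capitals.
Hspa1a: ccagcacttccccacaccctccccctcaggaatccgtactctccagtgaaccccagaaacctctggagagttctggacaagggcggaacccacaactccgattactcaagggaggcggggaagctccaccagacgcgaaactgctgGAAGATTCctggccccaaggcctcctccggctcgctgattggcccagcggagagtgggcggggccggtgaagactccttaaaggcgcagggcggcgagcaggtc
Hspa1b: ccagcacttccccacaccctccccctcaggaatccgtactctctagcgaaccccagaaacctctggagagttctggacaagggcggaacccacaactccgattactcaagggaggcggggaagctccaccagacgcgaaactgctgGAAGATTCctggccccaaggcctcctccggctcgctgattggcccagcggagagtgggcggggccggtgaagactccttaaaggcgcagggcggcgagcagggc
The 2 promoters were identical at 247 of 250 bases (98.8%). The substitutions from Hspa1a to Hspa1b, counted from 1 at the first base printed, were C44T, T47C and T249G, and none lay in the capitals, which run from -104 to -97 relative to the start site in both.

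The other promoters with a match are given as short stretches around it, for Hspb1 at chr5:135887791-135887840 on the plus strand, for Dnaja1 at chr4:40722333-40722362 on the plus strand, and for Hsph1 at chr5:149636351-149636380 on the minus strand.
Hspb1: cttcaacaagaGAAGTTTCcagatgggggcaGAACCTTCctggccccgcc
Dnaja1: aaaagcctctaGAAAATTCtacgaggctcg
Hsph1: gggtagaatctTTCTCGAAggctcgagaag
Hsph1 also held a run of 3 alternating repeats (the letters of GAANNTTC followed by NNGAA and read on the other strand), from 37 to 49 bases after its start site at chr5:149636287-149636313, with the run in capitals.
Hsph1, after the start site: aaaatgctgcagaTTCTGGAAAGTTCt
Both strands were searched for GAANNTTC, for TTCNNGAA and for GAANNTTC followed by NNGAA, which contains the others. Of the 32851 mouse promoters in the table, each 300 bases long, 7.86% held GAANNTTC, 8.52% TTCNNGAA and 0.603% the run of 3 repeats. Of the 6 genes with a promoter, 5 held GAANNTTC in at least 1 window (1 of 3 windows for Dnaja1), and Dnajb1 held none of the letters in either of its 2 windows. The percentages count windows, whereas the 5 of 6 counts genes with 1 to 3 windows each, so they are not like for like. Hspa1a and Hspa1b, nearly identical here, are 2 of the 5. In Hsph1 the GAANNTTC lay only after the start site. A match describes letters only.

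The arrays measured each gene with 1 to 4 probes of 60 bases. The signal is the processed intensity of the scanner software, with the error its own model gives, which is 10% of the signal for bright probes and covers the spot, not the spread between mice. This error comes from the model and not from repeat spots. For 271 probes with 9 or more spots, the standard deviation of the difference over spots had a median of 0.033. Such scatter within arrays does not cover the spread between arrays or mice either. For the comparison, each signal was expressed in log2 units above the 75th percentile of all signals on that array (256 at 9 weeks and 198 at 24 months), and the brightest probe stood for its gene. Both arrays measured 16 of the 19 probes well above background, and neither measured the other 3, a further probe each of Dnaja1, Hsp90aa1 and Hsph1. No probe of these genes shared a run of 20 bases with a probe of another gene. Differences are aged minus young on the log2 scale throughout.

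Among the 10 genes, 1 (0 to 2 over the settings tried) was higher by 2-fold or more in the aged sample, against 1.52% of the 18745 genes that both arrays measured, and 0 were lower by as much, against 3.05%. The gene past 2-fold was Hspa1a. In 9 of the 10 genes (7 to 10 over the settings tried) the aged value was the higher one, against 59.9% of all genes, and the exception was Dnajb1. The median difference of the 10 genes was 0.55, and that of all genes measured on both arrays was 0.09. The brightest 10% of all genes, which held 5 of the 10, had a higher aged value in 86.0% and a median of 0.40. Before any scaling the aged signal was the higher one in 6 of the 10 genes and the lower one in Dnajb1, Dnaja1, Hsp90ab1 and Hsf1. The order of the genes does not depend on such constants, since any constant per array moves every difference alike.

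**Figure D1:**
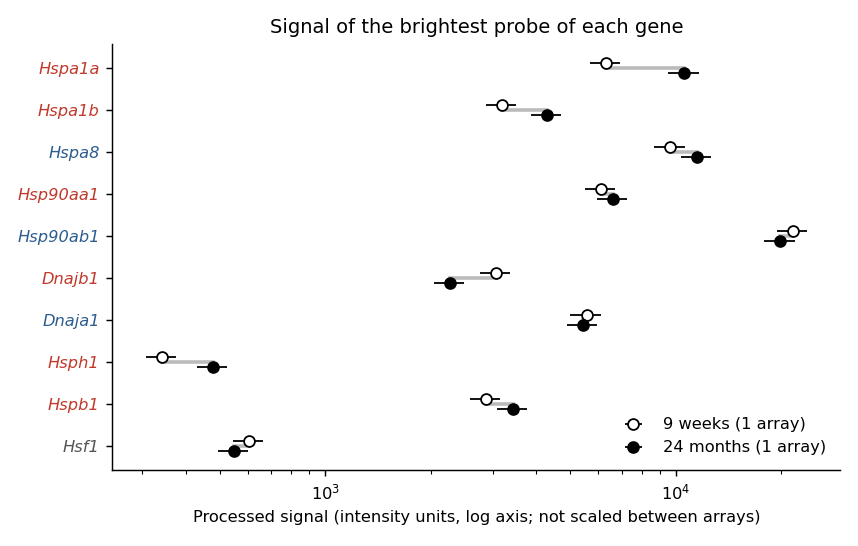
Processed signal of the brightest probe of each gene on the 9-week and the 24-month array, on a log axis in intensity units and not scaled between arrays. Bars are the error of the scanner software, gene names in red are inducible, in blue constitutive and in grey the regulator, and Hspa1a shows the widest gap, from 6312 to 10569.

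Hspa1a and Hspa1b encode nearly the same protein, the stress-induced Hsp70. The signal of Hspa1a was 6312 ± 631 at 9 weeks and 10569 ± 1057 at 24 months (error of the software, 1 array each). Relative to the 75th percentile this is 4.62 and 5.74, a difference of 1.12 ± 0.20, or 2.17-fold higher. It was under 2-fold in 3 of 12 settings, with 0.86 by the spike-in controls, 0.70 after loess and 0.66 after quantile normalization. Of all genes measured on both arrays, 213 (1.14%) had a larger difference. Its probe (A_52_P82741) lies on chromosome 17 from 35106766 to 35106825 of the files' build (NCBI37, mm9), which holds for all probe positions given here. Exon and UTR annotation of that build was not used here.

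The signal of Hspa1b was 3185 ± 318 at 9 weeks and 4274 ± 427 at 24 months. The difference was 0.80 ± 0.20, or 1.74-fold higher, and 2.87% of all genes had a larger one. Its probe (A_66_P118021) is placed from 35093374 to 35093405, so that the files align only 32 of its bases to the genome. The probes of the 2 genes are shown because the genes themselves are so alike, and their first 30 bases follow.
Hspa1a probe: agggaaactaaactgtctttcagttacttt
Hspa1b probe: taatctaagtaggttaaagatggtgtagtc
The longest run that the whole probes share is 5 bases. Whether either probe also binds the transcript of the other gene was not tested. The differences of Hspa1a and Hspa1b were 0.32 ± 0.29 apart, close to the error of the software, and 0.12 to 0.32 apart over 12 settings of the processing.

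Hspa8, the constitutive Hsp70 of the cytosol, was read by 4 probes, each of them measured on both arrays. The brightest (A_55_P2069721, chromosome 9 from 40612755 to 40613050) gave 9637 ± 964 at 9 weeks and 11454 ± 1145 at 24 months. The difference was 0.62 ± 0.20, or 1.54-fold higher. The other 3 probes gave differences of 0.46, 0.55 and 0.47, so the range over the gene was 0.17, less than the error of 1 probe. The 4 probes of Hspa8 thus all lay above 0 and under 2-fold.

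Cytosolic Hsp90 has a pair of paralogs, both with a higher aged value on the 75th percentile scale. Hsp90aa1, the form that stress induces, gave 6099 ± 610 at 9 weeks and 6593 ± 659 at 24 months by its brightest probe, a difference of 0.48 ± 0.20, or 1.40-fold higher. A second probe gave 0.39. The brightest Hsp90aa1 probe (A_55_P2796341) lies on chromosome 12 from 111932511 to 111932796. Hsp90ab1, the constitutive form, was read by 1 probe (A_55_P2048434, chromosome 17 from 45704788 to 45704847), which gave 21548 ± 2155 at 9 weeks and 19831 ± 1983 at 24 months. Its difference was 0.25 ± 0.20, or 1.19-fold higher, with a signal that was itself lower on the aged array. It turned to -0.26 after loess, to -0.33 after quantile normalization and to -0.0032 when the spike-in controls were used to level the arrays.

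The J-domain proteins lay on either side of 0. Dnajb1, the Hsp40 that heat induces together with Hsp70, was the gene with the lower aged value, from 3063 ± 306 on the young to 2264 ± 226 on the aged array. Relative to the 75th percentile the difference was -0.06 ± 0.20, within the error, and it was 0.11 when arrays were centred on their medians and -0.37 after loess. Dnaja1, a constitutive J-domain protein of the cytosol, gave 5556 ± 556 at 9 weeks and 5416 ± 542 at 24 months. Its difference was 0.34 ± 0.20, or 1.26-fold higher, and -0.039 after loess. The probes of Dnajb1 (A_51_P153486) and Dnaja1 (A_55_P2087984) lie on chromosome 8 from 86135660 to 86135719 and on chromosome 4 from 40679954 to 40680014. A dim second Dnaja1 probe, at 25.2 and 27.6, gave 0.50 ± 0.34.

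Hsph1, the Hsp110 that exchanges the nucleotide of Hsp70 and is also induced by heat, was read by 2 probes above background. By the brighter (A_55_P2176963, chromosome 5 from 150419744 to 150419803) its signal was 341 ± 34.2 at 9 weeks and 477 ± 47.8 at 24 months, a log2 difference of 0.86 ± 0.20, or 1.81-fold higher. Its second probe, at 103 ± 10.7 and 146 ± 15.0, gave 0.88 ± 0.21, so both probes placed the gene just under 2-fold. Of all genes, 2.27% had a larger difference than Hsph1.

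Hspb1, a small heat shock protein that holds unfolded protein without ATP, was read by 1 probe (A_55_P2039284, chromosome 5 from 136365366 to 136365425), which gave 2864 ± 286 at 9 weeks and 3419 ± 342 at 24 months. The difference was 0.63 ± 0.20, or 1.55-fold higher. Hsf1, which encodes the factor that turns the inducible genes on, gave 604 ± 60.5 and 548 ± 54.9, a difference of 0.23 ± 0.20, or 1.17-fold higher, and of -0.024 with the spike-in controls. Its probe (A_52_P647582) lies on chromosome 15 from 76331176 to 76331235. Hsf1 is controlled mostly through its protein, and the arrays measure its RNA alone.

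**Figure D2:**
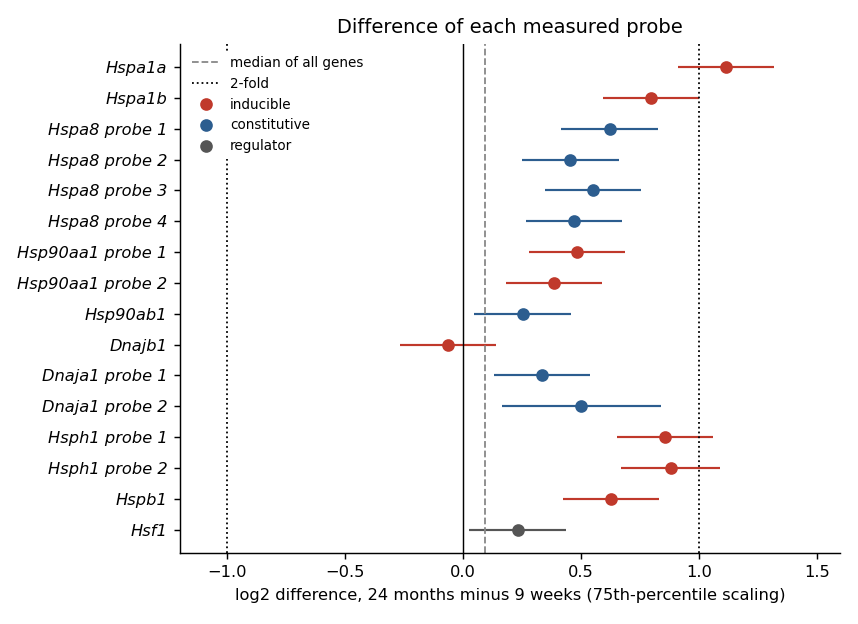
The log2 difference, aged minus young, of each of the 16 probes measured on both arrays, with bars for the error of the scanner software. The grey dashed line is the median of all genes at 0.09, dotted lines mark 2-fold, and the probe of Hspa1a alone lies past 2-fold.

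The genes were also placed among all 56597 probes of each array by the rank of their signal, which says how bright a probe is and not how many transcripts there are, since probes differ in how well they bind. By their brightest probes, 8 of the 10 genes were in the top 10% of probes on both arrays, and the exceptions were Hsf1 and Hsph1. The ranked probes include many not well above background, and the share of all genes in that top 10% was not computed. Among the genes measured on both arrays, 5 of the 10 were in the brightest 10%. Hspa1a moved from rank 1593 (percentile 97.2) on the young to rank 1028 (percentile 98.2) on the aged array. Hspa1b moved from rank 2686 to 2056, and Hsph1 from rank 10785 (percentile 80.9) to 8197 (percentile 85.5). Hsp90ab1 and Dnajb1 ranked lower on the aged array, from 502 to 575 and from 2776 to 3163, while Dnaja1 hardly moved, from 1752 to 1740. Hspa8 went from rank 1104 to 960, Hsp90aa1 from 1638 to 1513, Hspb1 from 2910 to 2399 and Hsf1 from 8074 to 7612.

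The inducible genes as a group had a median difference of 0.71, with a range from -0.06 for Dnajb1 to 1.12 for Hspa1a. The 3 constitutive genes had a median of 0.34, with a range from 0.25 to 0.62. The ranges overlap, since Hsp90aa1 and Dnajb1 lay below Hspa8. Within pairs of one family, which remove any constant between the arrays, Hspa1a exceeded Hspa8 by 0.49 ± 0.29, or 1.41-fold. Hspa1b exceeded Hspa8 by 0.18 ± 0.29, and Hsp90aa1 exceeded Hsp90ab1 by 0.23 ± 0.29, both less than the error. The pair of J-domain proteins went the other way, with Dnajb1 below Dnaja1 by a difference of -0.40 ± 0.29. Each pair kept its sign under all settings tried, from 0.49 to 0.59 for Hspa1a over Hspa8 and from -0.48 to -0.29 for Dnajb1 over Dnaja1. Constants per array cancel within a pair. Only quantile normalization, loess, the normexp correction and the mean over probes changed these values beyond rounding.

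Genes with bright probes as a whole had higher aged values on the 75th percentile scale, and most of the chaperone probes were bright. The brightest 10% of the genes measured on both arrays (1875 genes) had a median difference of 0.40, and 86.0% of them had a higher aged value. Of the 5 chaperone genes among them, Hspa1a, Hspa8 and Hsp90aa1 lay above that median and Dnaja1 and Hsp90ab1 below it. When the difference was taken relative to all probes of like brightness, by a loess curve, 0.41 was removed from Hspa1a, 0.44 from Hspa8 and 0.11 from Hsph1. The remaining differences were 0.75 for Hsph1, 0.70 for Hspa1a, 0.46 for Hspa1b and 0.31 for Hspb1, while Hspa8 kept 0.18 and Hsp90aa1 0.10. No gene of the set was then past 2-fold, and Dnaja1, Hsp90ab1 and Dnajb1 lay below 0. Hspa1a, Hsph1 and Hspa1b had the 3 highest differences of the set under all 12 settings, though settings that differ by a constant per array cannot change the order. Hsph1 was the highest after loess and after quantile normalization, and Hspa1a under the other settings.

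**Figure D3:**
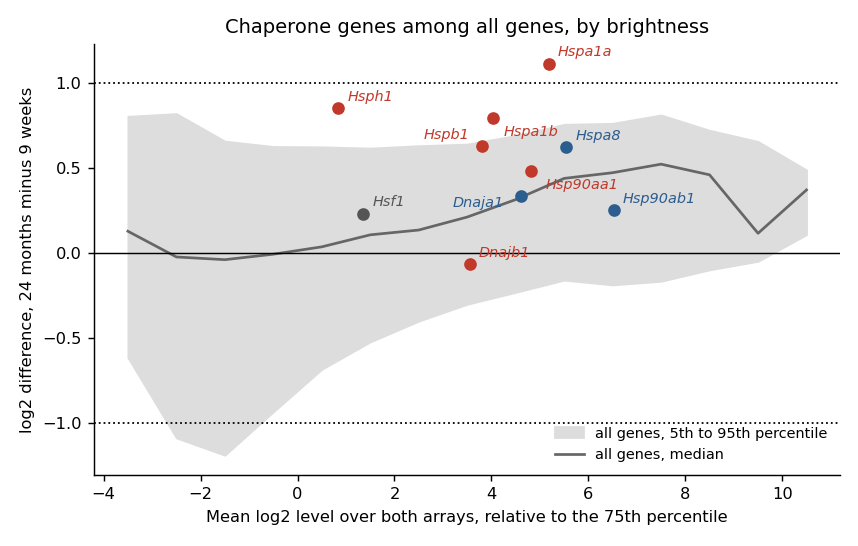
The log2 difference of each of the 10 genes against its mean log2 level over both arrays, with the median (grey line) and the 5th to 95th percentile (band) of all genes in bins of 1 log2 unit. Hspa1a, Hspa1b and Hsph1 lie above the band, and Hspa8, Dnaja1, Hsp90aa1, Hsp90ab1, Hsf1, Hspb1 and Dnajb1 lie inside it.

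The other genes of the chaperone system were taken as 7 lists with 56 genes, of which both arrays measured 51. None of the 51 was at least 2-fold higher and 1 was at least 2-fold lower, against 1.52% and 3.05% of all genes. A higher aged value was found in 44 of the 51 (28 to 46 over the settings), against 59.9% of all genes. Their median difference was 0.30. In the brightest 10% of the genes measured on both arrays, the share was 86.0% and the median 0.40. Many probes of the lists were bright as well. The lower gene was Hspb9, a small heat shock protein gene known from testis, with 199 at 9 weeks and 63.9 at 24 months, a log2 difference of -1.27 (0.415-fold), which ran from -1.52 to -0.69 over the settings and was under 2-fold with the normexp background correction.

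The list of 12 co-chaperones of Hsp90, which load clients, pace its ATP cycle or mark clients for decay, had a higher aged value in 12 of 12 (7 to 12 over the settings) and a median of 0.42. A higher aged value was found in 59.9% of all genes and in 86.0% of the brightest 10%, whose median was 0.40. The median of the co-chaperones lay between 0.071 and 0.60 over the settings. Fkbp5, an immunophilin of the steroid receptor complex and a target gene of glucocorticoids, had the largest difference at 0.91 (from 411 to 594, 1.87-fold). Unc45a, which helps Hsp90 fold myosin, had the smallest at 0.083. Stip1, which links Hsp70 to Hsp90, lay between them at 0.67.

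Of the 13 further Hsp70 genes and exchange factors, 11 were measured on both arrays, with 8 above 0 and a median of 0.051. Hspbp1, an exchange factor, had the largest difference at 0.67 and Hspa12b the smallest at -0.37, while Hspa1l and Hspa12a were not well above background. Bag3, an exchange factor that heat induces, differed by 0.38. The 9 other J-domain proteins had a median of 0.18, from -0.18 for Dnajc2, which sits on the ribosome, to 0.64 for Dnaja4. The sign of both medians changed over the settings, which ran from -0.20 to 0.23 for the first list and from -0.071 to 0.36 for the second.

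Of 8 other small heat shock proteins, 6 were measured on both arrays and had a median of 0.30 (0.046 to 0.48 over the settings), with Cryaa, an alpha-crystallin, the largest at 0.55. Hspb2 was well above background on the young array only, and Hspb3 on neither. Of the other heat shock factors and the Hsf1-binding protein gene Hsbp1, Hsf2 was the smallest at -0.58 (from 64.3 to 33.2), Hsbp1 the largest at 0.34, and Hsf5 was not well above background. All 8 subunits of TRiC, the chaperonin ring that folds actin and tubulin, had a higher aged value (5 to 8 over the settings). The share above 0 was 59.9% over all genes and 86.0% in the brightest 10% of genes. The TRiC median was 0.35 (0.034 to 0.52 over the settings), with a range from 0.086 for Cct4 to 0.44 for Cct5. The mitochondrial chaperonin genes Hspd1 and Hspe1 differed by 0.29 and 0.38, and their median lay between 0.012 and 0.51 over the settings, with 1 of 2 above 0 after loess.

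**Figure D4:**
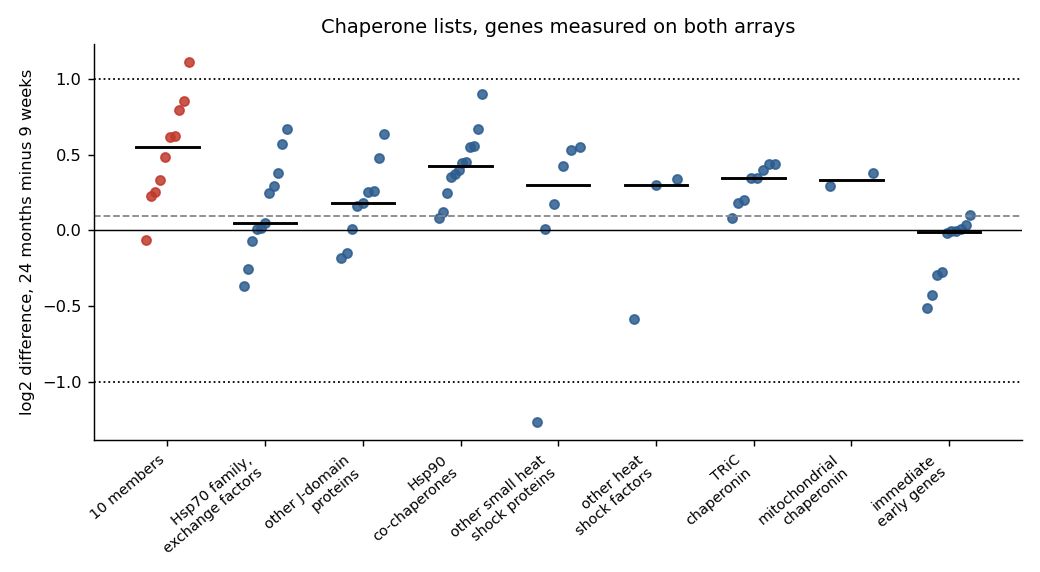
The log2 difference, aged minus young, of each gene measured on both arrays in the 10 genes, the 7 other chaperone lists and the immediate early genes, with a black bar for the median of each list. The grey dashed line is the median of all genes at 0.09, dotted lines mark 2-fold, and Hspa1a and Hspb9 are the points past it.

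Immediate early genes, which cells switch on within minutes of a stimulus such as enzyme digestion, were set beside the inducible chaperones. All 10 were bright on both arrays, the lowest at percentile 95.9 at 9 weeks and 94.6 at 24 months. At the 2-fold limit 0 of 10 were higher or lower, against 1.52% higher and 3.05% lower among all genes. Their median difference was -0.011, from -0.51 for Fosb (20422 to 11067) to 0.11 for Zfp36, and 3 of 10 (0 to 6 over the settings) were above 0. Fos itself gave 64890 and 50074, a difference of -0.0018. The share above 0 was 59.9% over all genes and 86.0% in the brightest 10% of genes, whose median was 0.40. The median of the immediate early genes lay between -0.61 and 0.16 over the settings. Relative to probes of like brightness, by loess, it was -0.61, with 0 of 10 above 0. The part of digestion in the level of either group was not tested.

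The labelled cell type was checked against 10 marker lists. Of the epithelial markers Epcam, Cdh1, Krt8 and Krt18 exceeded background clearly on each array and differed by 0.032 to 0.21, whereas Krt19 was well above background on the young array only. Markers of other cells were present on both arrays, and those of fibroblasts and of macrophages and dendritic cells had lower aged values. Of 5 fibroblast markers, 4 were measured on both, 3 of these were at least 2-fold lower, and the summed level of the list relative to the 75th percentile was 18.2 at 9 weeks and 8.45 at 24 months. Of 5 markers of macrophages and dendritic cells, 3 were at least 2-fold lower, with summed levels of 89.9 and 72.5. Cd79a, Mzb1 and Cd8a, markers of B, plasma and T cells, were well above background on neither array. Summed levels of further lists were 491 and 549 for epithelial, 2126 and 3110 for acinar, 988 and 917 for granular duct, 25.6 and 24.3 for basal and myoepithelial, 3.11 and 1.32 for plasma, 10.4 and 12.4 for T and 2.48 and 1.75 for endothelial cells on the young and aged array. Among the markers measured on both arrays, 1 acinar, 2 basal and myoepithelial, 1 B cell and 1 plasma cell marker were also at least 2-fold lower. The lower acinar marker was Smgc, with signals of 50183 at 9 weeks and 11245 at 24 months. In turn, 1 acinar marker, Bpifa2, was at least 2-fold higher (91878 and 204070). The acinar markers thus differed in direction, although their summed level was higher at 24 months. The sums include markers well above background on 1 array only. Of these, Cd3g of the T cell list was at least 2.06-fold lower at 24 months and Pdgfra of the fibroblast list at least 2.45-fold lower, each against the lowest signal well above background or, where that was higher, the dim probe's own signal. The part of the cell makeup in the chaperone differences was not tested. In such bulk RNA, fewer cells of a type and less RNA per cell cannot be told apart.

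The values were recomputed under 11 other settings of scaling, background, filter and probe rule. The 10 genes had 7 to 10 members above 0 over the settings, and their median exceeded that of all genes by 0.11 to 0.46. The excess was 0.11 after quantile normalization and 0.19 after loess. Hsph1 passed 2-fold in 1 setting, with 1.03 when arrays were centred on their medians.

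**Figure D5:**
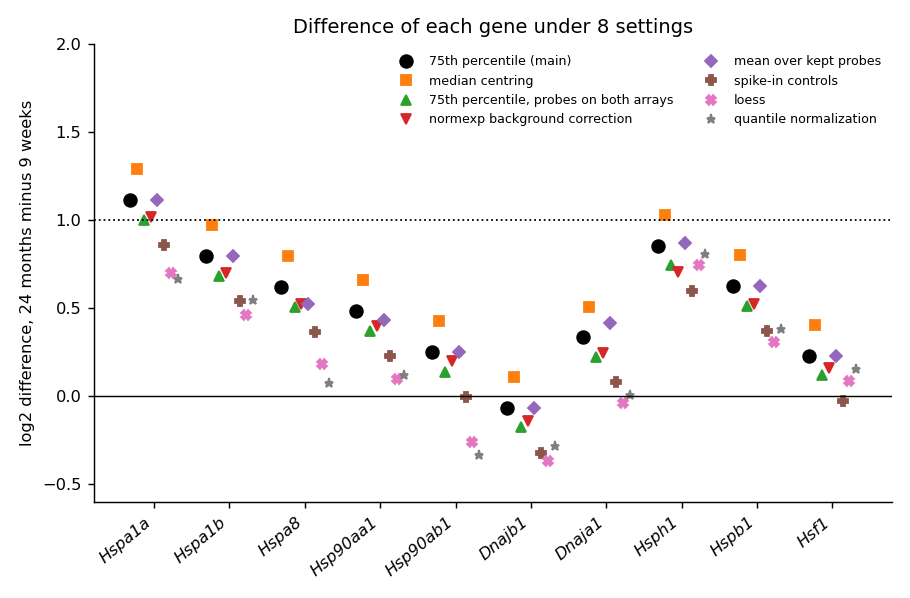
The log2 difference of each of the 10 genes under 8 of the settings, each marker 1 setting and the dotted line 2-fold. Hspa1a spans 0.66 to 1.29 and stays above 0, Dnajb1 spans -0.37 to 0.11, and Hsp90ab1 spans -0.33 to 0.43.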

How the data were processed

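Each age was measured on 1 Agilent mouse array. The authors deposited scanner files with the intensity of each spot (Agilent Feature Extraction 12.0.3.1, per the submitters' processing notes), with background and trends removed, an error per spot and marks for outliers, and no scaling between arrays. The table the authors deposited holds a ratio, the same intensity over 1 constant per array (229 and 176). Of 59305 spots, 55.4% at 9 weeks and 50.8% at 24 months were well above background, which limits precision for dim probes. None was saturated.

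Here log2 intensity was taken relative to the 75th percentile, and outlier spots on either array were left out. Repeat spots were averaged, a probe had to exceed background clearly on at least 1 of the 2 arrays, and each gene took its brightest probe. A 2-fold limit, named in the methods, was used. Names came from RefSeq accessions where they matched (33762 of 56605 probes). The steps were tested on simulated data, made of the young signals times a constant, with spot noise and 200 changed probes. The simulation held no trend with brightness, so it does not show how the steps handle one. The other settings are given in the closing section. Genes named outside the set were those past 2-fold, or the largest and smallest of each list, while Stip1, Bag3, Fos, the unmeasured genes and the comparison of Hspa1a with Hspa1b were added after their values were seen. One marker and the summed level of its list are not reported here. Members and lists were chosen with earlier results of these data known. Python 3.11.15, numpy 2.4.6, pandas 2.3.3, matplotlib 3.10.9, R 4.3.3 and limma 3.58.1 were used.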

Additional observations from a re-analysis of the deposited data

How the results depend on the processing

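Over 11 alternatives, 333 of 385 values moved by less than their error (or, for counts, by at most 1.5 times) and 52 moved further. This total includes settings that left the values nearly unchanged. With other filters on dim probes, outlier spots kept or the deposited values, 0 of 35 values moved. Of the same 35 values, 14 moved with the spike-in controls, 14 with quantile normalization and 12 with loess. Hspa1a and Hspb9 kept their signs under every setting. No paired analysis was possible because each age has 1 array, and for the same reason no array could be left out. The causes of the moves below were not tested. Constants per array move every gene alike, by 0.17 for centring on the median, -0.11 for the 75th percentile over probes on both arrays and -0.26 for the spike-in controls, of which 8 of 10 were measured. The share of higher genes among all genes past 2-fold was 33.2% (284 higher and 571 lower), and was 52.7% (464 and 417) with median centring, 23.5% (214 and 697) with the 75th percentile over probes on both arrays, and 13.9% (150 and 929) with the spike-in controls. The normexp correction called 107 higher and 209 lower.

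With median centring, 2 members were at least 2-fold higher, 1 co-chaperone of Hsp90 was at least 2-fold higher, and the median difference was 0.73 for all members, 0.89 for the inducible and 0.51 for the constitutive genes. With the 75th percentile over probes on both arrays, the median was 0.44 for all members and 0.60 for the inducible genes. With the normexp background correction, these medians were 0.46 and 0.61, and 0 other small heat shock proteins were at least 2-fold lower. With the mean over the probes of a gene, the median of all members was 0.48, and 1 further Hsp70 gene or exchange factor was at least 2-fold lower.

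With the arrays set level on the spike-in controls, 0 members were at least 2-fold higher. The differences were 0.86 for Hspa1a, 0.54 for Hspa1b, 0.37 for Hspa8, 0.23 for Hsp90aa1, -0.0032 for Hsp90ab1, 0.37 for Hspb1, 0.60 for Hsph1, 0.080 for Dnaja1, -0.32 for Dnajb1 and -0.024 for Hsf1, with medians of 0.30 for all members, 0.46 for the inducible and 0.080 for the constitutive genes. With quantile normalization, 0 members were at least 2-fold higher and 1 immediate early gene was at least 2-fold lower. The differences were 0.66 for Hspa1a, 0.55 for Hspa1b, 0.073 for Hspa8, 0.12 for Hsp90aa1, -0.33 for Hsp90ab1, 0.38 for Hspb1, 0.0091 for Dnaja1 and -0.28 for Dnajb1, with medians of 0.14, 0.46 and 0.0091, and Hspa1b exceeded Hspa8 by 0.47. With loess, 0 members were at least 2-fold higher, and the differences were 0.70 for Hspa1a, 0.46 for Hspa1b, 0.18 for Hspa8, 0.10 for Hsp90aa1, -0.26 for Hsp90ab1, 0.31 for Hspb1, -0.039 for Dnaja1 and -0.37 for Dnajb1, with medians of 0.14, 0.39 and -0.039.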
